A study of Mus musculus with 14 samples.

Results

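Hcn2, Hcn3, Hcn4, Shox2 and Cntn2 were followed in the hearts of mouse embryos that lacked different copies of Irx3 and Irx5. These are 5 of the 19931 genes measured. They were chosen by name, as the pacemaker channel and conduction genes of the value table, and each was read by 1 probe set that carries 1 gene symbol. The series measured RNA from E12.5 embryonic hearts on the Mouse Gene 1.0 ST array of Affymetrix, with 1 array per sample and 14 in all. There were 4 arrays of Irx3-/-;Irx5-/- hearts, 3 of Irx5-/- hearts, 4 of Irx3-/-;Irx5+/- hearts and 3 of Irx5+/- hearts, the last being the reference named in the series text. All 4 genotypes therefore carried at least 1 null Irx5 allele, and no wild-type heart was among these samples. The alleles are written as whole-animal genotypes and the labels name no Cre driver. Whether each array came from its own embryo is not stated in the labels. Every genotype held arrays with low and with high signals of the Y-linked gene Eif2s3y (lowest and highest 4.22 and 9.59 in double null, 4.64 and 10.05 in Irx5-/-, 4.43 and 9.83 in Irx3-/-;Irx5+/- and 4.47 and 9.34 in Irx5+/- hearts), so no genotype was a single embryo. The p-values cover the spread among these samples. For 1 of the 14 arrays, Irx3-/-;Irx5+/- replicate 4, the title, source and genotype labels give that genotype while its description names Irx5-/-. Its Irx3 signal, 8.17, lay above the 7.87, 7.89 and 7.93 of the other arrays with that genotype label and inside the range of the Irx5-/- arrays, 8.25, 8.14 and 8.19. Its Irx5 signal, 8.31, lay within the Irx5-/- range, 7.86 to 8.34, and also within the Irx5+/- range, 8.19 to 8.41. It was just above the other arrays with its own label, which read 8.21 to 8.306. The Irx5 signal thus did not place the array with one genotype or the other. The array was kept with its genotype label, and the differences of the 5 genes below that rest on it are also given without it.

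HCN channels open when the membrane becomes negative and bind cyclic nucleotides, and they carry the inward "funny" current that helps to depolarise sinus node cells between beats. Hcn4 is the main subunit of the sinus node, and Hcn2 and Hcn3 encode related subunits that can be found in heart and, more widely, in neurons. Shox2 is a homeodomain transcription factor of the sinus venosus and sinus node that restrains Nkx2-5 and with it the working muscle programme. Cntn2, or contactin-2, is a cell adhesion molecule of the immunoglobulin superfamily that is anchored to axons in the nervous system and marks cells of the His bundle and Purkinje network in mouse heart. Irx3 and Irx5 encode Iroquois homeodomain factors, of which Irx3 is known for its part in the ventricular conduction system.

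The windows upstream of Hcn4 and Cntn2 are shown because these genes had the largest shifts relative to their spread. Each is the 250 bases before the annotated gene start, 5' to 3' on the gene's own strand, from RefSeq on build GRCm38.p6. The Hcn4 window is chr9:58822699-58822948 on the plus strand, with 71.2% G and C. The Cntn2 window is chr1:132542941-132543190 on the minus strand, with 61.2% G and C, against a median of 52.4% over all windows.
Hcn4: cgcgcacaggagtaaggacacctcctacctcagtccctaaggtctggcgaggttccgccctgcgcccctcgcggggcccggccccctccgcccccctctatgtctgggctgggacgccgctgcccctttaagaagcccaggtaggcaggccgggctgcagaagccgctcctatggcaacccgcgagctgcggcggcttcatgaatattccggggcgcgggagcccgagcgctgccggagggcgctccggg
Cntn2: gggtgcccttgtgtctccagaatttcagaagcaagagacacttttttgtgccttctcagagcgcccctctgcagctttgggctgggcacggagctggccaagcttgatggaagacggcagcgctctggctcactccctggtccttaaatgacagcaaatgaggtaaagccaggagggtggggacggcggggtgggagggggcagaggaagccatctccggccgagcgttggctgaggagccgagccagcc
There were windows for 4 of the 5 genes, and that of Hcn3 was not analysed here. On both strands these 4 windows were searched for the Iroquois letters ACANNTGT, the T-box letters AGGTGTNA and the NK2 letters TNAAGTG. None of the 4 held any of these motifs, so no letters are in capitals. Of all 32851 windows of this length, 6.31%, 2.68% and 10.1% held a match to the Iroquois, T-box and NK2 letters, in that order. The absence of a match says only that these letters are not in these windows.

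None of the 5 genes passed the test in any comparison between the 4 genotypes, at a Benjamini-Hochberg adjusted p under 0.05 in limma over all 19931 genes. Of the 45 values, which are the 5 genes in 6 pairwise comparisons, an interaction and 2 averaged effects, 0 passed and 3 had an unadjusted p under 0.05. Few other genes passed either. Double null against Irx5+/- hearts gave 0.0201% of all genes at the adjusted threshold, double null against Irx3-/-;Irx5+/- hearts gave 0.00502%, and each of the other 4 pairwise comparisons gave 0%. Over all 9 contrasts, between 1.5% and 8.32% of all genes had an unadjusted p under 0.05 in any 1 direction. The 3 low unadjusted p-values were all for lower signals. They were Cntn2 in double null against Irx5+/- hearts, Cntn2 in the averaged effect of losing the last Irx5 copy, and Hcn4 in double null against Irx5-/- hearts. For a lower signal at that threshold, the share of all genes was 5.56%, 7.03% and 2.13% in these comparisons, in the same order.

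On these arrays a level depends on the probe set's own sequence as well as on RNA, so levels are compared between genotypes and not between genes. Olfactory receptor genes, which a heart is not known to use, gave a gauge of dim probe sets, with 1026 genes, a median of 5.73 and a 95th percentile of 7.57 on the log2 intensity scale. Averaged over all arrays, Hcn4, Hcn3 and Cntn2 lay above that 95th percentile, with means of 8.73, 7.72 and 7.93. Hcn2, at 7.56, lay just under it. Shox2, at 5.60, lay below the median of the gauge, so its signal cannot be told from that of genes not known to be used in heart, and small differences in it are read accordingly. In whole hearts, fewer cells of a type and less RNA per cell cannot be told apart.

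**Figure D1:**
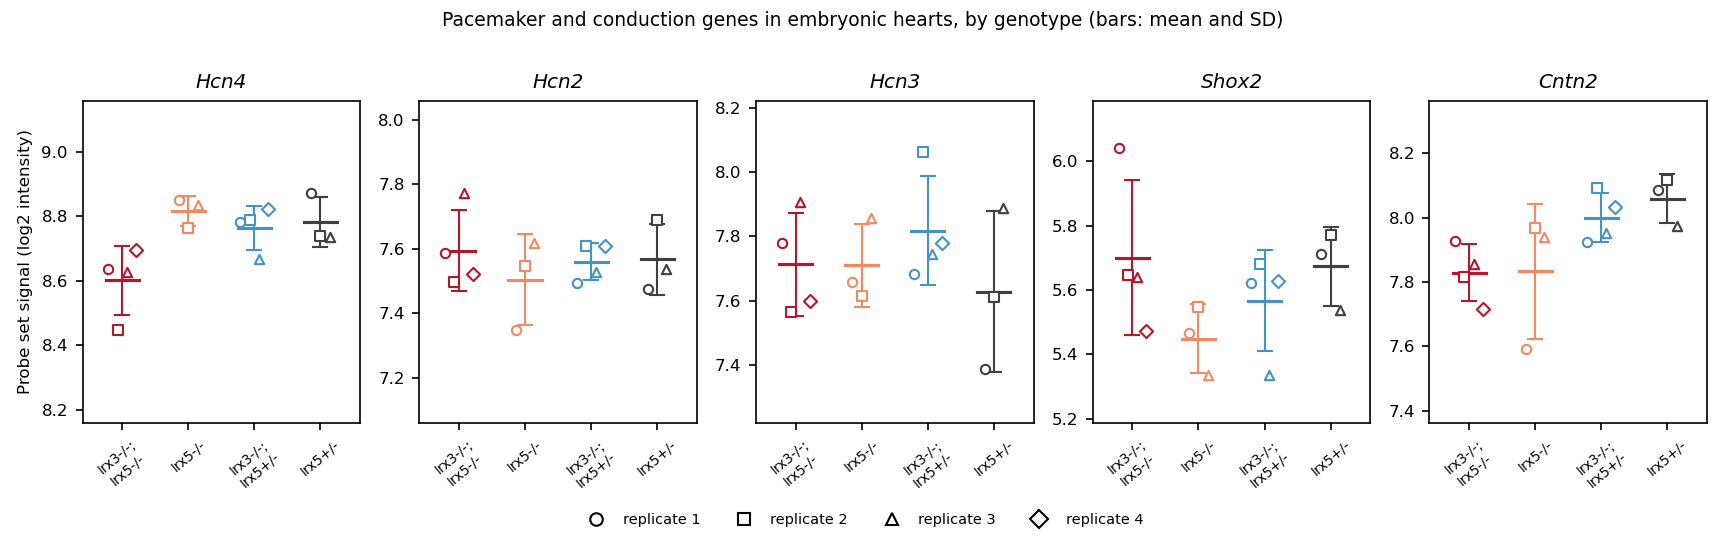
Probe set signal (log2 intensity) of Hcn4, Hcn2, Hcn3, Shox2 and Cntn2 on each of the 14 arrays, by genotype. Each symbol is 1 array, its shape gives the replicate number, and bars give the group mean and SD. The 4 double null arrays of Hcn4 lie below all Irx5-/- and Irx5+/- arrays, while the groups of Hcn2, Hcn3 and Shox2 overlap.

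Hcn4, the main pacemaker channel subunit, had its lowest signals in double null hearts. Its log2 intensity was 8.64, 8.45, 8.63 and 8.70 in Irx3-/-;Irx5-/- hearts, 8.85, 8.76 and 8.84 in Irx5-/- hearts, 8.78, 8.79, 8.67 and 8.82 in Irx3-/-;Irx5+/- hearts, and 8.87, 8.74 and 8.74 in Irx5+/- hearts. The double null arrays lay below every Irx5-/- and every Irx5+/- array, and they overlapped with the Irx3-/-;Irx5+/- arrays through replicate 3 of that genotype. Group means ± SD were 8.60 ± 0.11 (n = 4) in double null hearts, 8.82 ± 0.05 (n = 3) in Irx5-/- hearts, 8.76 ± 0.07 (n = 4) in Irx3-/-;Irx5+/- hearts and 8.78 ± 0.08 (n = 3) in Irx5+/- hearts. In this order of levels the 3 upper genotypes do not differ beyond their spread.

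Against Irx5+/- hearts, the double null difference of Hcn4 was -0.18 ± 0.09 (log2, SE; 95% interval -0.37 to 0.01), a fold of 0.882. Its limma p was 0.0563 and its adjusted p was 0.387. A 2-sided exact permutation test over the 7 arrays gave p = 0.0571, where the smallest possible was 0.0286. Against Irx5-/- hearts the difference was -0.22 ± 0.09 (95% interval -0.40 to -0.03), with a limma p of 0.0267 and an adjusted p of 1. Under the alternatives listed below, this difference ran from -0.25 to -0.16. Its limma p ran from 0.0188 to 0.0815, the highest without double null replicate 2. Against Irx3-/-;Irx5+/- hearts the double null difference was -0.16 ± 0.08, with an adjusted p of 0.654 in limma, and -0.14 without the array whose labels disagree. Groups that do not overlap, with the first genotype lower, were found for 5.58% of all genes in double null against Irx5+/- hearts and for 1.98% in double null against Irx5-/- hearts. In the first of these comparisons 2 of the 5 genes, Hcn4 and Cntn2, were of this kind, and in the second 1 of 5, Hcn4.

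In neither Irx5-/- nor Irx3-/-;Irx5+/- hearts did Hcn4 differ from Irx5+/- hearts by more than its spread. The difference was 0.03 ± 0.09 in Irx5-/- against Irx5+/- hearts and -0.02 ± 0.09 in Irx3-/-;Irx5+/- against Irx5+/- hearts, or -0.04 without the array whose labels disagree. The interaction, which sets the effect of Irx3 loss without Irx5 against that with 1 Irx5 copy, was -0.20 ± 0.12 (95% interval -0.46 to 0.07; limma adjusted p = 1), so it was not shown that the effects differ. Averaged over both Irx5 backgrounds, the effect of Irx3 loss on Hcn4 was -0.12 ± 0.06 (limma adjusted p = 1). Without the array whose labels disagree, the interaction was -0.18 and this effect -0.13. In limma's F test over the 4 genotypes the adjusted p was 0.614. Over the 6 pairwise comparisons, the 95% intervals of Hcn4 reached no lower than a fold of 0.757 and no higher than 1.18.

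Hcn2 signals were nearly level across the genotypes. They were 7.59, 7.50, 7.77 and 7.52 in Irx3-/-;Irx5-/- hearts, 7.35, 7.55 and 7.62 in Irx5-/- hearts, 7.49, 7.61, 7.53 and 7.61 in Irx3-/-;Irx5+/- hearts, and 7.48, 7.69 and 7.54 in Irx5+/- hearts. All 4 groups overlapped, with the highest array in the double null group and the lowest in the Irx5-/- group. The order of group means was double null, 7.59, Irx5+/-, 7.57, Irx3-/-;Irx5+/-, 7.56, and Irx5-/-, 7.50, and no neighbours in it differ beyond their spread. The double null difference from Irx5+/- hearts was 0.03 ± 0.10 (limma adjusted p = 0.932). Over the 6 pairwise comparisons the 95% intervals of Hcn2 ran between folds of 0.816 and 1.24. Its SD over all arrays, 0.10, was larger than that of only 5.02% of genes.

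Hcn3, the subunit reported from mouse ventricle as well as from neurons, varied more from array to array. Its signals were 7.78, 7.57, 7.91 and 7.60 in Irx3-/-;Irx5-/- hearts, 7.66, 7.61 and 7.86 in Irx5-/- hearts, 7.68, 8.06, 7.75 and 7.78 in Irx3-/-;Irx5+/- hearts, and 7.39, 7.61 and 7.89 in Irx5+/- hearts. The Irx5+/- arrays alone spanned most of the range of the other groups, and all groups overlapped. In order, the group means were 7.82 in Irx3-/-;Irx5+/- hearts, 7.71 in double null and in Irx5-/- hearts, and 7.63 in Irx5+/- hearts, with SDs of 0.13 to 0.25, so no neighbours differ beyond their spread. The Irx3-/-;Irx5+/- difference from Irx5+/- hearts was 0.19 ± 0.14 (95% interval -0.10 to 0.48; limma adjusted p = 1), 0.20 without the array whose labels disagree and 0.07 without Irx5+/- replicate 1. The double null difference from Irx5+/- hearts was 0.08 ± 0.14 (adjusted p = 0.829).

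Shox2, the sinus node transcription factor, was dim in every heart. It read 6.04, 5.65, 5.64 and 5.47 in Irx3-/-;Irx5-/- hearts, 5.47, 5.55 and 5.34 in Irx5-/- hearts, 5.62, 5.68, 5.34 and 5.63 in Irx3-/-;Irx5+/- hearts, and 5.71, 5.77 and 5.54 in Irx5+/- hearts. Replicate 1 of the double null genotype stood highest, and every group overlapped with the others. The mean was 5.70 ± 0.24 in double null hearts, 5.45 ± 0.11 in Irx5-/- hearts, 5.57 ± 0.16 in Irx3-/-;Irx5+/- hearts and 5.67 ± 0.12 in Irx5+/- hearts (SD, n = 4, 3, 4 and 3). The widest gap was double null minus Irx5-/- hearts, 0.25 ± 0.13 (95% interval -0.03 to 0.54; limma adjusted p = 1), and it was 0.14 without double null replicate 1. The Irx5-/- difference from Irx5+/- hearts was -0.22 ± 0.14 (adjusted p = 0.576). The interaction was 0.36 ± 0.19 (95% interval -0.05 to 0.76; adjusted p = 1), and 0.38 without the array whose labels disagree.

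Cntn2, the adhesion molecule of the His and Purkinje cells, had its lower signals in the hearts without Irx5. It read 7.93, 7.82, 7.86 and 7.71 in Irx3-/-;Irx5-/- hearts, 7.59, 7.97 and 7.94 in Irx5-/- hearts, 7.92, 8.09, 7.95 and 8.03 in Irx3-/-;Irx5+/- hearts, and 8.09, 8.12 and 7.97 in Irx5+/- hearts. Both genotypes without Irx5 lay below all Irx5+/- arrays, and both overlapped with Irx3-/-;Irx5+/- hearts. The highest Irx5-/- array, at 7.968, was only just below the lowest Irx5+/- array, at 7.972. Irx5-/- replicate 1 was the lowest of all. In the order of levels the means were 7.83 in double null and in Irx5-/- hearts, 7.9999 in Irx3-/-;Irx5+/- hearts and 8.06 in Irx5+/- hearts, with SDs of 0.09, 0.21, 0.08 and 0.08 in the same genotypes.

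The double null difference of Cntn2 from Irx5+/- hearts was -0.23 ± 0.10 (log2, SE; 95% interval -0.45 to -0.01), a fold of 0.853, with a limma p of 0.0449 and an adjusted p of 0.357. The Irx5-/- difference from Irx5+/- hearts was nearly the same in size, -0.23 ± 0.11 (limma adjusted p = 0.486), but it was -0.10 without Irx5-/- replicate 1. In that comparison 9.52% of all genes had groups that do not overlap with Irx5-/- lower, and 1 of the 5 genes, Cntn2, did. Averaged over both Irx3 backgrounds, losing the last Irx5 copy went with a difference of -0.20 ± 0.07 (95% interval -0.36 to -0.04). Its limma p was 0.0177 and its adjusted p was 0.236. An exact permutation test within the Irx3 backgrounds gave p = 0.00286, 2-sided, where the smallest possible was 0.00143. This exact p is not adjusted for the number of genes or comparisons. For this averaged effect 0.0151% of all genes passed after adjustment, and 7.03% had an unadjusted p under 0.05 with a lower signal, as did 1 of the 5 genes, Cntn2. Without the array whose labels disagree, the averaged effect on Cntn2 was -0.19 (adjusted p = 0.33). The averaged effect of Irx3 loss on Cntn2 was -0.03 ± 0.07 (limma adjusted p = 1), and -0.04 without that array.

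**Figure D2:**
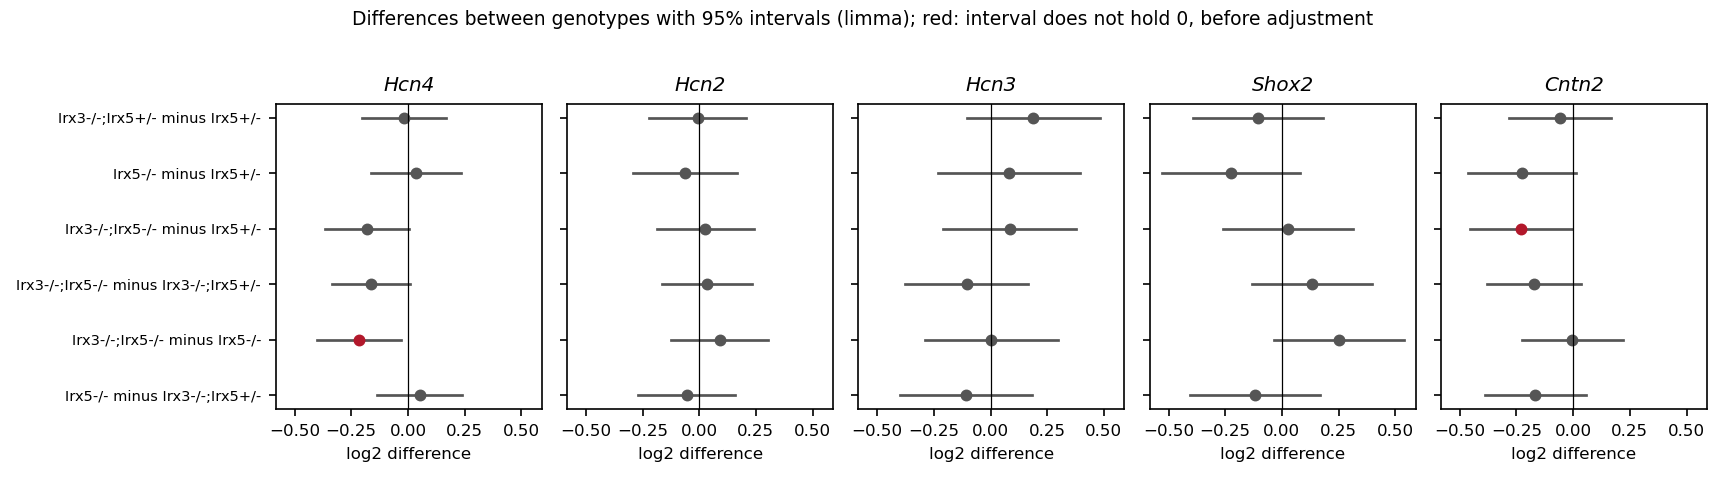
Log2 differences of the 5 genes in the 6 pairwise comparisons of genotypes, as points with 95% intervals from limma. Red points have an interval without 0 before adjustment over all genes. These are Hcn4 in Irx3-/-;Irx5-/- minus Irx5-/- hearts, at -0.22, and Cntn2 in Irx3-/-;Irx5-/- minus Irx5+/- hearts, at -0.23, and neither passed after adjustment.

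Several of the 5 signals moved with the brightness of the dim probe sets on the same array. The olfactory receptor mean of an array, relative to its mean over all arrays, ran from -0.11 to 0.10 in double null hearts, from -0.08 to 0.01 in Irx5-/- hearts, from -0.02 to 0.10 in Irx3-/-;Irx5+/- hearts and from 0.04 to 0.05 in Irx5+/- hearts. For the loss of the last Irx5 copy, 78.3% of the olfactory receptor genes had a lower signal, with a median difference of -0.07, against 57.1% of all genes. Over the 14 arrays, which share their normalization, the correlation with this gauge was r = 0.70 for Cntn2 (Spearman's rho 0.70), 0.68 for Hcn2 (0.63) and 0.54 for Hcn3 (0.54). For Shox2 it was 0.32 (0.45) and for Hcn4 0.28 (0.21). Without the 2 arrays farthest from the median of the gauge, r was 0.61 for Cntn2, 0.73 for Hcn2, 0.44 for Hcn3, 0.36 for Shox2 and -0.26 for Hcn4.

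With the gauge as a covariate, an alternative chosen after seeing the data, the Irx5 effect on Cntn2 was -0.13 ± 0.07 (limma adjusted p = 0.564). The double null difference of Hcn4 from Irx5+/- hearts was -0.16 ± 0.09 with the gauge (adjusted p = 0.509), and from Irx5-/- hearts -0.22 ± 0.08 (adjusted p = 1).

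Signals of markers of other cells were also compared. The 23 measured sarcomere genes all had higher signals in double null than in Irx5+/- hearts, with a median difference of 1.16. Of these, 20 had an unadjusted p under 0.05, where 7.9% of all genes were higher, though 0 passed after adjustment. All 23 were also higher in Irx5-/- than in Irx5+/- hearts, with a median of 0.92, and in Irx3-/-;Irx5+/- than in Irx5+/- hearts, with a median of 0.82. Their summed level (log2 of the sum of intensities) ran from 16.72 to 17.07 in double null hearts and from 15.35 to 16.73 in Irx5+/- hearts, where replicate 3 stood lowest, so the groups overlapped slightly. Without that array, the double null difference of the sarcomere list mean from Irx5+/- hearts was 0.58, against 1.01 with it. In the same way, the Irx5-/- difference from Irx5+/- hearts was 0.32, against 0.75, and the Irx3-/-;Irx5+/- difference was 0.30, against 0.73. Summed levels of 16.42 to 17.17 in Irx5-/- and 16.35 to 16.93 in Irx3-/-;Irx5+/- hearts also overlapped with those of Irx5+/- hearts. All 10 endothelial markers, such as Cd34 and Pecam1, had lower signals in double null than in Irx5+/- hearts, with a median of -0.86, and all 10 lay above the 95th percentile of the gauge. Of these, 10 had an unadjusted p under 0.05, where 5.56% of all genes were lower, and 0 passed after adjustment. In Irx5-/- against Irx5+/- hearts all 10 were lower too, with a median of -0.81. There 9 had an unadjusted p under 0.05, where 4.66% of all genes were lower, and 0 passed. In Irx3-/-;Irx5+/- against Irx5+/- hearts 9 were lower and 1 higher, with a median of -0.16. Summed endothelial levels ran from 13.16 to 14.31 in double null hearts, from 13.60 to 13.95 in Irx5-/- hearts, from 14.204 to 14.72 in Irx3-/-;Irx5+/- hearts and from 14.48 to 14.80 in Irx5+/- hearts. Cntn2 moved with the endothelial mean over the 14 arrays (r = 0.706, rho 0.705), and within groups r was 0.33. Of the 15 neural and neural crest markers measured, only 6 lay above the 95th percentile of the gauge. The mean of all 15 moved with Hcn2 at r = 0.745 (rho 0.705). The mean of 9 lung, liver and body wall markers, of which 2 lay above that percentile, moved with Hcn2, Hcn3 and Cntn2 as well, at r = 0.68, 0.67 and 0.63.

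In double null against Irx5-/- hearts, where Hcn4 had its lowest p, all 8 epicardial markers had higher signals, with a median of 0.34. Of these, 1 had an unadjusted p under 0.05, where 1.5% of all genes were higher, and 0 passed. Summed epicardial levels overlapped, from 11.996 to 13.74 in double null hearts and from 11.67 to 13.22 in Irx5-/- hearts. Hcn4 and the mean of 6 erythroid markers had r = -0.50 over the 14 arrays (rho -0.31), -0.61 within groups and -0.24 without the 2 farthest arrays. The part of the endothelial, neural, lung, liver and body wall, epicardial and erythroid markers in these results was not tested.

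With the sarcomere mean of each array as a covariate, the double null difference from Irx5+/- hearts was -0.24 ± 0.12 for Hcn4 (limma adjusted p = 0.646) and -0.32 ± 0.14 for Cntn2 (adjusted p = 0.572). Both were lower than without it. Across arrays, r with the sarcomere mean was -0.14 for Hcn4 (rho -0.24), 0.10 for Hcn2 (-0.06) and -0.22 for Hcn3 (-0.20). For Shox2 it was 0.18 (0.125) and for Cntn2 -0.18 (-0.42). Within groups r was 0.34 for Hcn4, 0.11 for Hcn2, -0.55 for Hcn3, 0.36 for Shox2 and 0.37 for Cntn2. The Hcn3 difference between Irx3-/-;Irx5+/- and Irx5+/- hearts was 0.34 with this covariate, at an unadjusted limma p of 0.0379 and an adjusted p of 0.8.

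**Figure D3:**
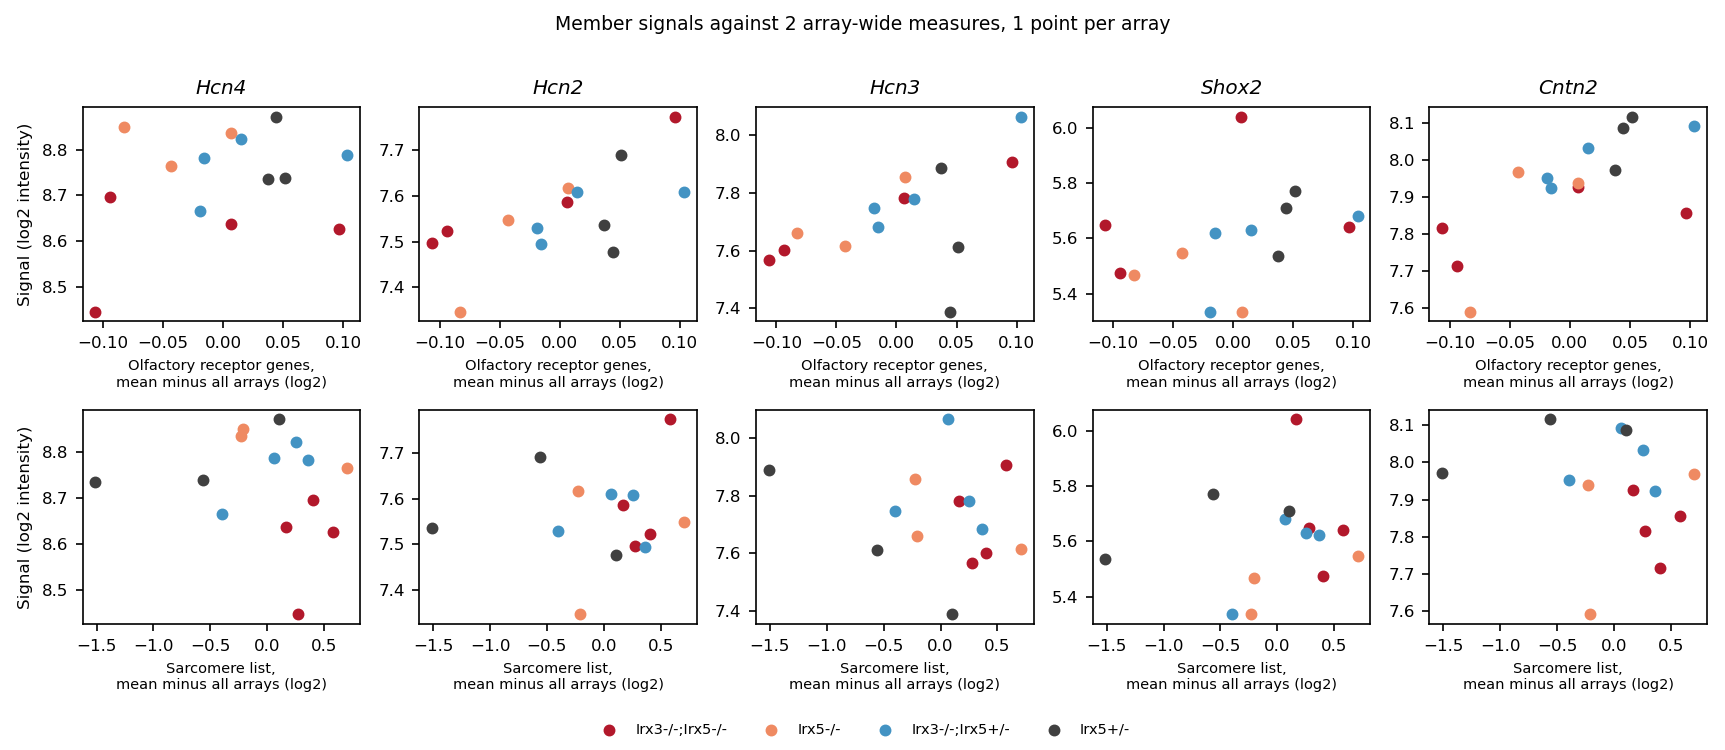
Signal of each gene (log2 intensity) against the olfactory receptor mean of the array (upper row) and the sarcomere list mean (lower row), both as differences from their mean over all arrays on the log2 scale. Each point is 1 of the 14 arrays, coloured by genotype. Cntn2 and Hcn2 are higher on arrays with a higher olfactory mean, at r = 0.70 and 0.68. Along the sarcomere axis Pearson's r lies between -0.22 and 0.18, while Spearman's rho is -0.42 for Cntn2.

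The 5 genes can be read against other genes of the pacemaker and conduction tissues. Of 21 measured genes on a sinus node and pacemaker list, which includes the HCN subunits and Shox2, 14 had higher and 7 lower signals in double null than in Irx5+/- hearts. The median difference was 0.18, against -0.03 over all genes, and 0 passed after adjustment, while 7 higher and 2 lower genes had an unadjusted p under 0.05. At that threshold 7.9% of all genes were higher and 5.56% lower. The smallest p belonged to Cacna2d2, an auxiliary subunit of voltage-gated calcium channels, and to Tbx3, a T-box repressor that keeps pacemaker and atrioventricular conduction cells from becoming working muscle.

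Cacna2d2 read 9.17, 9.16, 9.28 and 8.63 in double null hearts, against 8.04, 8.03 and 7.49 in Irx5+/- hearts. Tbx3 read 8.76, 8.62, 8.94 and 8.36 in double null hearts, against 8.20, 7.98 and 8.12 in Irx5+/- hearts. In both genes every double null array lay above every Irx5+/- array. The differences were 1.20 ± 0.27 for Cacna2d2 (limma adjusted p = 0.122) and 0.57 ± 0.14 for Tbx3 (adjusted p = 0.139), so the signals of Tbx3 and Hcn4 lay on opposite sides of 0. Groups that do not overlap, with double null higher, were found for 6.48% of all genes. Of 7 measured genes of the circuit around Shox2, Hcn4 among them, 4 had higher and 3 lower signals in double null hearts. Their median was 0.09, with 2 higher at an unadjusted p under 0.05, against 7.9% of all genes, and 0 passing. The circuit genes include Tbx3 and Tbx18, a T-box factor of the sinus horns, which was at 0.87 ± 0.35 (adjusted p = 0.298). They also include Isl1, a LIM homeodomain factor of the sinus node, at -0.67 ± 0.49 (adjusted p = 0.586). The 2 lower genes of the sinus node list at an unadjusted p under 0.05, named here after their values were seen, were Smoc2, at -1.29 ± 0.49 (adjusted p = 0.282), and the T-type calcium channel gene Cacna1g, at -0.80 ± 0.28 (adjusted p = 0.245). Of 7 atrioventricular canal genes, 6 had higher and 1 lower signals in double null hearts, with a median of 0.43 and 0 passing. At an unadjusted p under 0.05, 5 were higher and 1 lower, where 7.9% of all genes were higher and 5.56% lower. The lower gene was Cacna1g, which is also on the sinus node list. Over the 14 arrays Hcn4 moved against the mean of the atrioventricular canal list (r = -0.737, rho -0.556). Without the 2 arrays farthest on this list mean, both double null, r was -0.366. The part of these genes in the Hcn4 result was not tested.

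On a ventricular conduction list of 22 measured genes, which includes Cntn2 and the Iroquois genes, 14 had higher and 8 lower signals in double null than in Irx5+/- hearts, with a median of 0.10. The 1 gene that passed was Irx3 itself. Its signal was 7.86, 7.69, 7.75 and 7.60 in double null hearts, against 8.43, 8.53 and 8.44 in Irx5+/- hearts, and the difference was -0.74 ± 0.10 (limma adjusted p = 0.0201). In Irx3-/-;Irx5+/- against Irx5+/- hearts the Irx3 difference was -0.50 ± 0.10 (adjusted p = 0.673), and -0.57 without the array whose labels disagree. Irx5 read 8.20, 8.43, 7.52 and 8.04 in double null hearts and 7.86, 8.34 and 7.91 in Irx5-/- hearts, against 8.19, 8.41 and 8.37 in Irx5+/- hearts, and its difference in double null hearts was -0.28 ± 0.18 (adjusted p = 0.532). Where these probe sets lie relative to the deleted parts is not stated in the sources.

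Gja5, which encodes the gap junction protein connexin 40 of atrial and Purkinje cells, read 10.23, 10.84, 11.14 and 10.44 in double null hearts, against 9.99, 8.31 and 7.38 in Irx5+/- hearts. No double null array overlapped with the Irx5+/- arrays, which were themselves far apart. The difference was 2.10 ± 0.47 (limma adjusted p = 0.122), and 1.51 without Irx5+/- replicate 3. Gja5 was at 1.79 ± 0.50 in Irx5-/- against Irx5+/- hearts (limma adjusted p = 0.289), and 1.20 without Irx5+/- replicate 3. In Irx3-/-;Irx5+/- against Irx5+/- hearts it was at 1.53 ± 0.47 (limma adjusted p = 0.844), and 0.94 without that array. The means of all 3 genotypes thus lay above that of Irx5+/- hearts. Irx5+/- replicate 1, at 9.993, lay above the lowest Irx5-/- array, 9.989, and the lowest Irx3-/-;Irx5+/- array, 9.74, so these groups overlapped. Cntn2, at -0.23 in double null hearts, lay on the other side of 0.

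**Figure D4:**
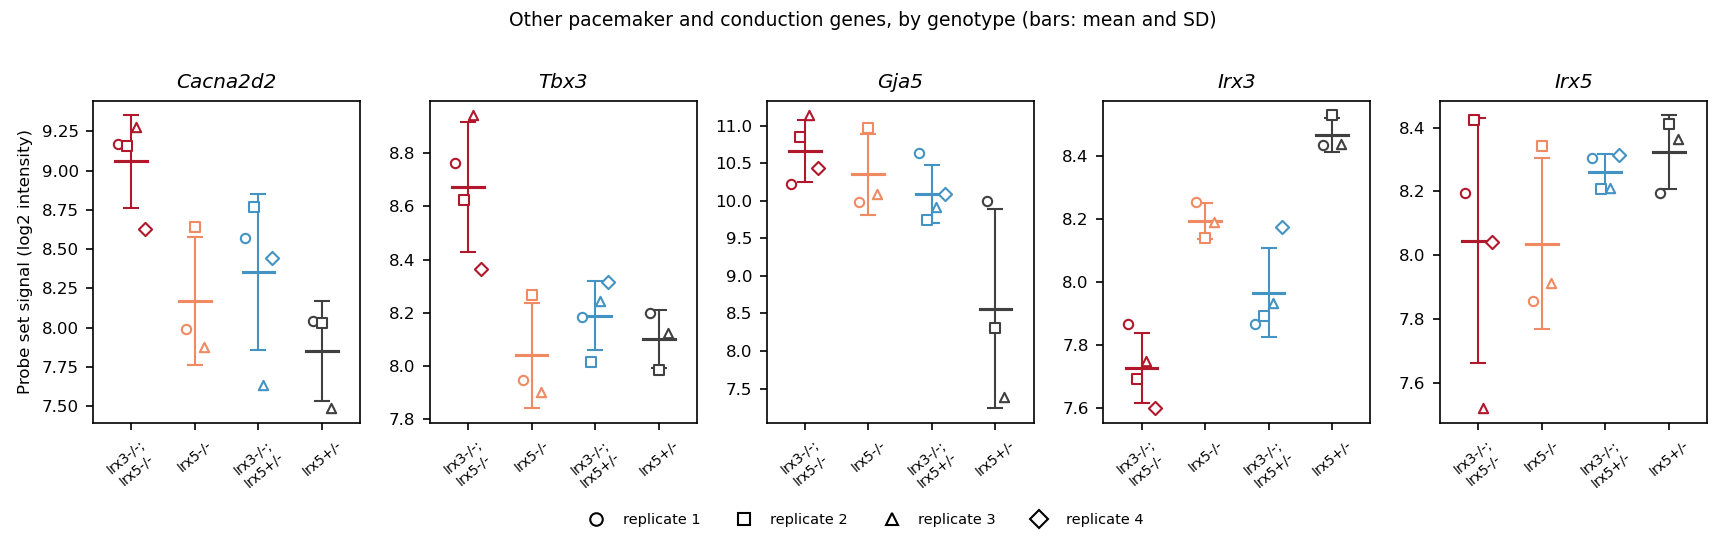
Probe set signal (log2 intensity) of Cacna2d2, Tbx3, Gja5, Irx3 and Irx5 on each array, by genotype, with group means and SDs. Irx3 lies lowest in double null hearts, between 7.60 and 7.86, just below the lowest Irx3-/-;Irx5+/- array at 7.87. The means of Tbx3 and Cacna2d2 are highest in double null hearts, though for Cacna2d2 replicate 4, at 8.63, overlaps with other genotypes.

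**Figure D5:**
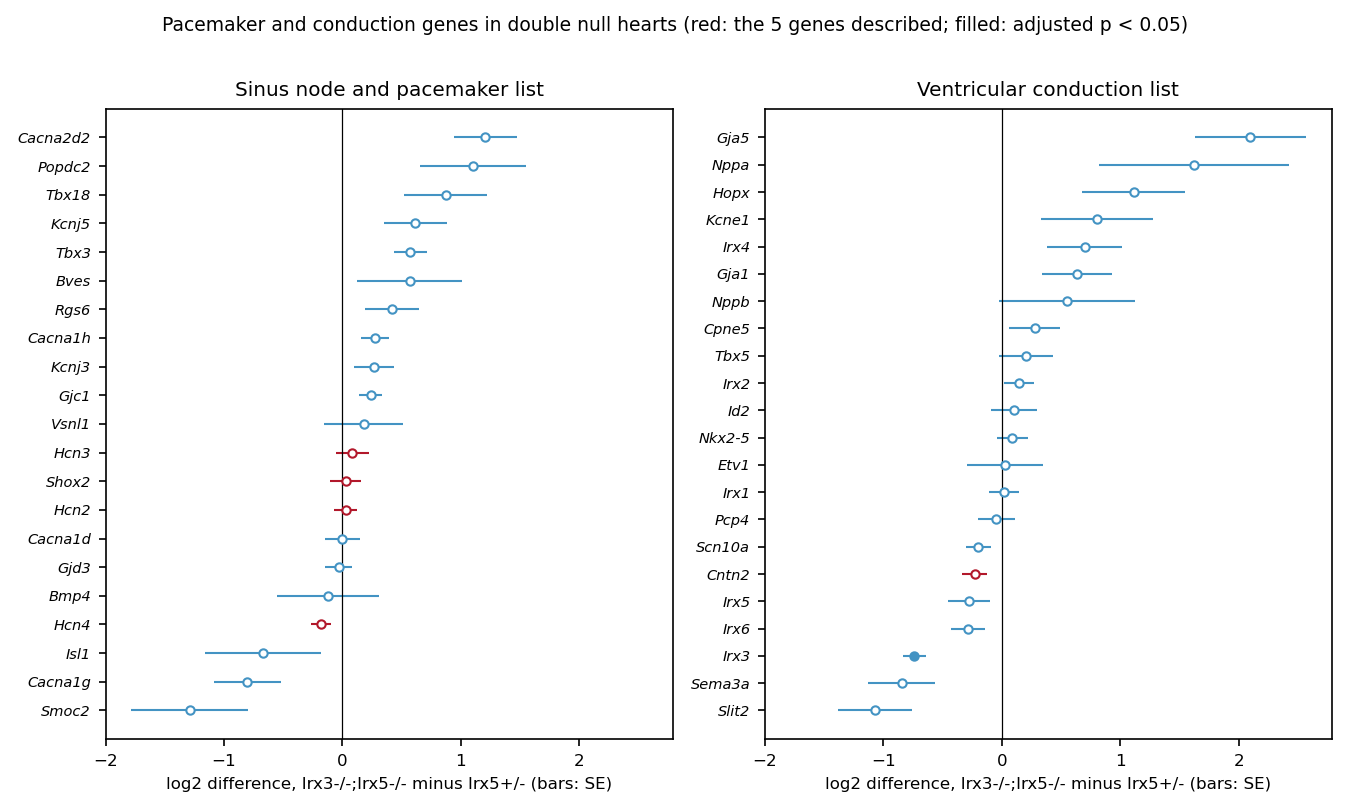
Log2 difference between Irx3-/-;Irx5-/- and Irx5+/- hearts, with SE, for the 21 sinus node and pacemaker genes (left) and the 22 ventricular conduction genes (right). Red marks the 5 genes described and the filled point, Irx3, is the one with an adjusted p under 0.05. The 5 genes lie between -0.23 and 0.08, while the other genes spread from -1.29 to 2.10.

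Among 10 partners of HCN channels, 6 had higher and 4 lower signals in double null than in Irx5+/- hearts, with a median of 0.07. Of these, 0 passed and 1, with a higher signal, had an unadjusted p under 0.05, where 7.9% of all genes were higher. That gene was Vapa, a membrane contact protein of the endoplasmic reticulum, at 0.25 ± 0.11 (limma adjusted p = 0.327). Pex5l, or TRIP8b, which sets how many HCN channels reach the membrane of neurons, had an averaged Irx5 effect of -0.21 ± 0.07 (limma adjusted p = 0.221). Across the 10 partners this effect ran from -0.21 to 0.38. At an unadjusted limma p under 0.05, 2 partners were higher and 1 lower, where 8.32% of all genes were higher and 7.03% lower. Among 15 relatives and partners of contactin-2, 6 had higher and 9 lower signals in double null hearts, with a median of -0.05 and 0 passing. At an unadjusted p under 0.05, 1 was higher and 3 lower, where 7.9% of all genes were higher and 5.56% lower. Epb41l3, a membrane skeleton protein of axon junctions, was at 0.68 ± 0.15 (adjusted p = 0.122), and the contactin gene Cntn4 at -1.14 ± 0.43 (adjusted p = 0.278). Only 3 of these 15 lay above the 95th percentile of the olfactory gauge in mean signal.

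The genes whose signals followed each of the 5 most closely over the 14 arrays were picked by the highest Pearson r among 8914 candidates. For Shox2 these were Lhx9, a LIM homeodomain factor, at r = 0.92 (rho 0.86), Cpne8, a copine, at 0.90 (rho 0.84) and Gjb6, a connexin gene, at 0.84 (rho 0.68). Lhx9 read 8.07 on double null replicate 1, where Shox2 was also highest, and between 7.09 and 7.47 on the other 13 arrays. Without the 2 arrays on which Shox2 lay farthest from its median, which include that one, r with Lhx9 was 0.86. For Cntn2 they were Phospho1 at 0.90, Lrrc8b at 0.89 and Hdac7, a class II histone deacetylase, at 0.88. For Hcn4 they were Cxcl11 at 0.79, Csrnp1 at 0.79 and Erap1 at 0.77.

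For Hcn2 the closest were Txndc8 at 0.88, Atp6v1g3 at 0.87 and Psg19 at 0.86, and for Hcn3 Slc18a1 at 0.84, Ncdn at 0.82 and Nxnl2 at 0.82. High values are reached by picking the top of so many candidates over so few arrays, and the arrays share their normalization. The 5 genes followed each other less closely. The highest r between 2 of them was 0.49, for Hcn2 and Cntn2, then 0.48 for Hcn2 and Hcn3, and Hcn4 lay between -0.22 and 0.23 with the other 4.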

How the data were processed

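Heart RNA in 14 samples was measured on Affymetrix Mouse Gene 1.0 ST arrays after amplification from 1 ng of total RNA, per the labels' protocols. Each probe set has a log2 intensity per array in the deposited table. Per the file headers, the authors made these log2 values with RMA over all arrays together in affy, kept probe sets with a group mean above 3 for statistics and fitted limma with Benjamini-Hochberg adjustment. The sources used here give neither their versions nor the build of the array annotation. The table holds 28763 probe sets, of which 21776 carry 1 gene symbol in the platform annotation, 1592 several and 5395 none. Where a gene had several probe sets the one with the highest mean was kept, giving 19931 genes. Intensities carry no read depth, so the number of arrays limits the precision. Array medians ran from 7.998 to 8.10.

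The main test was limma 3.58.1 (R 4.3.3), 2-sided, with a mean per genotype over all 14 arrays, 10 residual and 3.50 prior degrees of freedom, called at an adjusted p under 0.05. The procedure was tested on simulated data. Alternatives were centring, a filter on dim genes, other probe set rules, fits of 2 groups only, trended and robust moderation, a replicate block, sarcomere and sex covariates, and leaving out each array. The olfactory covariate, and differences of group means of the sarcomere list, Gja5 and Irx3 without 1 array, were added after seeing the data. Besides the 5 genes, the text names Irx3, Irx5 and Gja5, list genes that passed or had the 2 smallest p in a comparison described, and the 3 closest genes of each. Isl1, Smoc2, Cacna1g and the Y-linked gene Eif2s3y are named in addition. The 5 genes and the lists were chosen with earlier results of these data known. Some listed genes are not reported here.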

Additional observations from a re-analysis of the deposited data

How the results depend on the processing

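No value of the 5 genes passed the adjusted threshold under any alternative, and 774 of 819 recomputed values kept their direction. The other 45 had the opposite sign, as did 1 list median. The adjusted p of the double null difference from Irx5+/- hearts ran from 0.324 to 0.646 for Hcn4 (log2 differences -0.24 to -0.13) and from 0.336 to 0.588 for Cntn2 (-0.32 to -0.16). With the olfactory covariate, the Hcn2 differences were 0.024 (Irx3-/-;Irx5+/- minus Irx5+/-), 0.048 (Irx5-/- minus Irx5+/-), 0.025 (Irx5-/- minus Irx3-/-;Irx5+/-) and 0.072 (averaged Irx5 effect). In the same setting those of Hcn3 were -0.027 (double null minus Irx5-/-), 0.011 (Irx5-/- minus Irx3-/-;Irx5+/-) and 0.12 (averaged Irx5 effect), and the averaged Irx5 effect on Shox2 was 0.0099. With the sarcomere covariate, Hcn4 in Irx5-/- minus Irx5+/- was -0.0082, Shox2 in double null minus Irx5+/- was -0.10, the averaged Irx5 effect on Hcn3 was 0.093, and the sinus node list median in Irx5-/- minus Irx5+/- was -0.034. After centring, the averaged Irx5 effect on Hcn3 was 0.0024. With the replicate block, Cntn2 in double null minus Irx5-/- was 0.0093, the double null difference of Hcn4 from Irx5+/- hearts was -0.21, and the block changed no call. Deviations of same-numbered arrays of different genotypes had r from -0.179 to 0.191 over 19 pairs, 4 of them over 0.1. The replicate 3 arrays of Irx5+/-, Irx3-/-;Irx5+/- and Irx5-/- hearts went weakly together, at r = 0.144, 0.191 and 0.156. Double null replicate 3 did not go with them, at r from -0.162 to -0.0554. The numbers were not taken as a pairing.

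Leaving out 1 array gave both signs for 15 results, none of them larger in size than 0.0845 in the fit to all arrays. For Hcn4 in Irx3-/-;Irx5+/- minus Irx5+/- they ran from -0.041 to 0.027. For Hcn2 they ran from -0.053 to 0.054 in the same comparison, from -0.12 to 0.015 in Irx5-/- minus Irx5+/-, from -0.033 to 0.088 in double null minus Irx5+/-, from -0.025 to 0.067 in double null minus Irx3-/-;Irx5+/-, from -0.11 to 0.023 in Irx5-/- minus Irx3-/-;Irx5+/-, and from -0.044 to 0.025 for the averaged Irx5 effect. For Hcn3 they ran from -0.039 to 0.21 in Irx5-/- minus Irx5+/-, from -0.036 to 0.21 in double null minus Irx5+/-, from -0.061 to 0.076 in double null minus Irx5-/-, and from -0.072 to 0.053 for the averaged Irx5 effect. For Shox2 in double null minus Irx5+/- they ran from -0.086 to 0.10. For Cntn2 they ran from -0.12 to 0.064 in double null minus Irx5-/-, from -0.067 to 0.12 for the interaction, and from -0.092 to 0.0027 for the averaged Irx3 effect. Among all genes, those called in double null against Irx5+/- hearts numbered 4 as reported and 0 to 23 under the alternatives, with the most when Irx5+/- replicate 1 was left out. The counts were 1 against 0 to 5 for double null against Irx3-/-;Irx5+/- hearts, 3 against 0 to 10 for the averaged Irx5 effect, 0 against 0 to 2 for double null against Irx5-/- hearts, and 0 against 0 to 1 for Irx5-/- against Irx5+/- hearts. The cause was not tested. With genes below the median left out, Hcn4 alone of the 5 had a value, and each gene has 1 probe set, so other probe set rules could not move its level. The whole-heart samples, groups of 3 or 4 arrays and the dim Shox2 signal limit what could be seen.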
